A study of Bos taurus with 6 samples.

Results

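The genes ALPL, ENPP1, ANKH, SLC20A1 and SLC20A2, which set the balance of phosphate and pyrophosphate outside the cell, were examined across the depth of bovine articular cartilage. They were taken by symbol from the deposited annotation of an Affymetrix bovine array, and all 7 probesets (groups of probes read as 1 value) that carry one of these 5 symbols were used, out of 24016 probesets and 11636 filed symbols. ALPL and ANKH have 2 probesets each and the others have 1. The study measured normal (grade 1) knee cartilage in a superficial zone (SZ), a middle zone (MZ) and a deep zone (DZ) from 2 cattle aged 14 to 30 months, with 1 array for each zone of each animal (n = 2 per zone, 6 arrays), and asked which genes differ between zones. Per the labels' protocols, cores from the femoral condyles were sliced at 50 µm from the surface down to the calcified cartilage, the upper 10% of slices giving SZ, the middle 40% MZ and the lower 30% DZ, with about 200 µm discarded at each border. No animal was treated or genetically altered according to the labels, and the 3 zones of a replicate number come from 1 animal, called animal 1 and animal 2 here. The input to amplification was 5 ng of RNA per zone.

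Mineral forms in cartilage and bone where inorganic phosphate is plentiful and pyrophosphate, which blocks crystal growth, is scarce. ENPP1 is an ectoenzyme that makes pyrophosphate from ATP, ANKH is a membrane protein needed for the export of ATP and pyrophosphate, and ALPL (tissue-nonspecific alkaline phosphatase) splits pyrophosphate into phosphate. SLC20A1 and SLC20A2 are sodium-dependent phosphate transporters of the plasma membrane. In articular cartilage the layer next to the bone is calcified, while the layers above stay unmineralised.

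Values are log2 expression from the deposited RMA table, so a step of 1 is a doubling. The median of the 6 arrays lay between 4.42 and 4.46, and their lower quartile between 2.71 and 2.87. The table holds no detection calls, so a value near the lower quartile is called neither present nor absent, and a linear fold is withheld unless the zone with less signal exceeds its arrays' lower quartiles by more than 1 in each animal. Chondrocyte markers (COL2A1, ACAN and others) summed to a log2 level of 15.06 to 15.72 on the 6 arrays, a sum set mostly by the brightest genes. Of the 8 measured, each by its brightest probeset, 2 were lower in SZ than in DZ and 6 did not pass. The 2 were CNMD (SZ minus DZ −4.80, limma adjusted p = 0.0123) and COL9A2 (−1.74, adjusted p = 0.0452), the latter called in 4 of 11 alternative settings. COL9A1 was not called on its brightest probeset (−1.66, adjusted p = 0.0571), but its dimmer one was called lower in SZ (−1.97, adjusted p = 0.0277). The DZ arrays share a code at the start of their description that differs from the code of the SZ and MZ arrays, so whatever the code stands for cannot be told apart from DZ. The arrays also differed in controls. The median of 27 probesets for Bacillus transcripts was 5.88 (animal 1) and 6.24 (animal 2) in SZ, 4.90 and 4.17 in MZ, and 3.61 and 3.56 in DZ. SZ and MZ therefore differed in these controls too (median SZ minus MZ 1.26, MZ minus DZ 0.92). A control probeset for the 3' part of BioB read 6.96 in DZ of animal 1 and 9.53 in DZ of animal 2. On the SZ and MZ arrays it read 9.91 to 10.87. The 3' minus 5' difference of cyclophilin is a measure of length bias in RNA or amplification. It was 3.30 (animal 1) and 2.54 (animal 2) in DZ, 2.23 and 2.66 in MZ, and 2.24 and 1.69 in SZ. DZ thus overlapped with MZ but lay above SZ in both animals.

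ALPL was the 1 gene of the 5 that differed between zones past the test, and it was higher in the deep zone. Its brighter probeset read 8.75 in animal 1 and 7.46 in animal 2 in DZ. In SZ it read 4.72 and 3.88, and in MZ 3.33 and 3.67, in the same order of animals. Both DZ arrays lay above all 4 arrays of the upper zones, whose highest value was SZ of animal 1. On its own array the probeset stood at the 95th percentile of all probesets in DZ of animal 1 and at the 86.9th in DZ of animal 2, but between the 33.7th and the 54.2nd in SZ and MZ.

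The level in DZ was 14-fold that in SZ (SZ minus DZ −3.81, SE 0.40, 95% interval −4.79 to −2.82), which passed limma's moderated test with an adjusted p of 0.0115. This fold is uncertain, because SZ of animal 2 (3.88) only just exceeded its array's lower quartile (2.87) by the margin of 1. In the dCHIP table SZ minus DZ was −5.17. Animal by animal SZ minus DZ was −4.04 and −3.58 in the RMA table. For MZ minus DZ it was −4.60 (SE 0.40, interval −5.59 to −3.62, limma adjusted p = 0.0140), and animal by animal −5.42 and −3.79. SZ and MZ did not pass against each other (0.80, interval −0.19 to 1.78, adjusted p = 0.671): SZ read higher in both animals, by 1.38 and 0.21, and in the dCHIP table the sign turned (−0.07). The order of levels was therefore DZ above SZ and MZ, with the latter pair not separated by the test. In bulk slices a larger number of expressing cells and more RNA per cell cannot be told apart.

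The dimmer ALPL probeset gave the same direction with less signal. It read 6.13 and 4.14 in DZ (animal 1 and animal 2), and between 2.62 and 2.81 on the 4 arrays of SZ and MZ. These 4 values lie at the lower quartile of the arrays, so the size of the difference is uncertain. The differences were −2.44 for SZ minus DZ (SE 0.55, adjusted p = 0.0882) and −2.41 for MZ minus DZ (SE 0.55, adjusted p = 0.188), neither past the threshold. In DZ animal 2 read below animal 1 on both ALPL probesets (animal 2 minus animal 1, −1.29 and −1.99), and over the 6 arrays they correlated with r = 0.936 as a description.

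**Figure D1:**
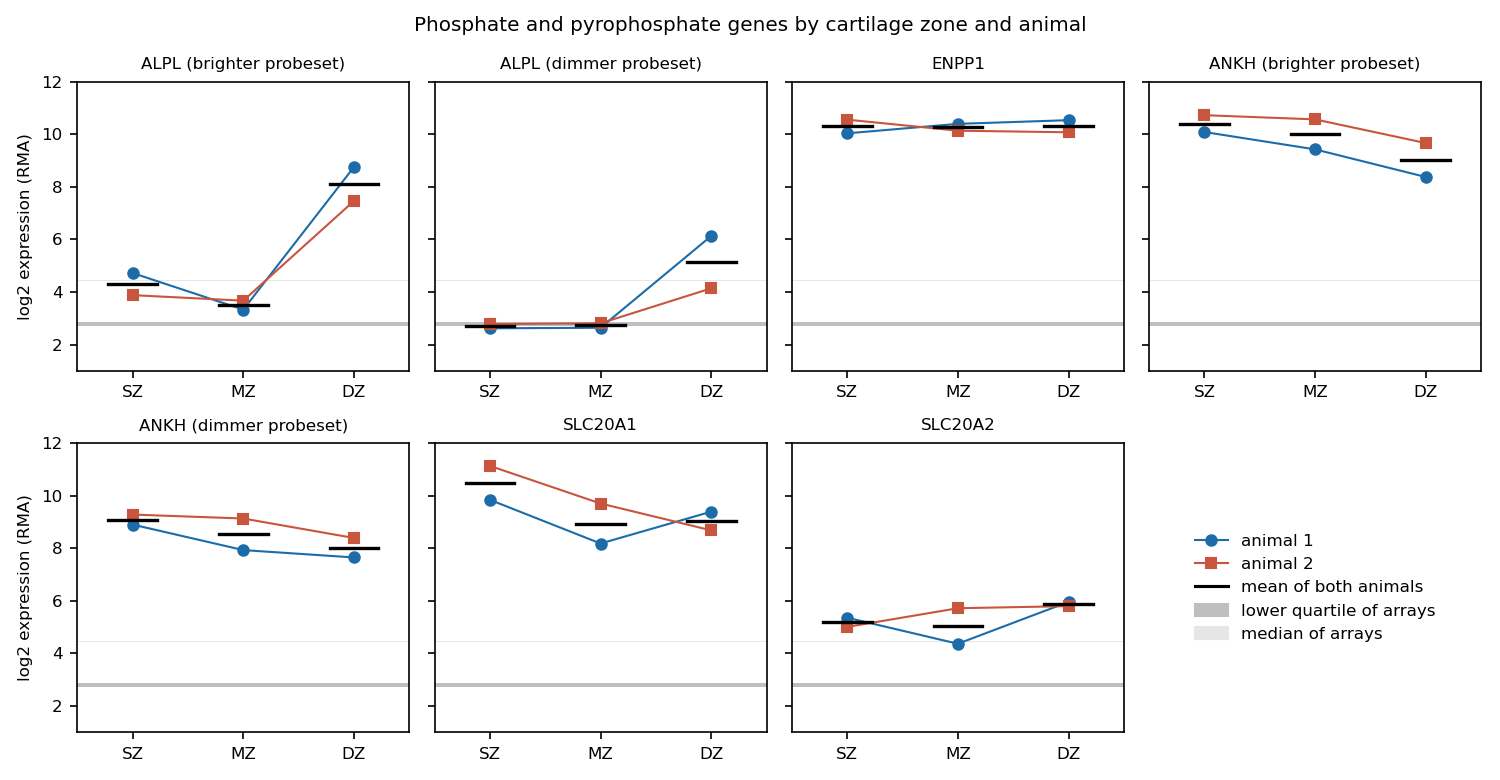
Log2 expression (RMA) of the 7 probesets on the vertical axis for SZ, MZ and DZ, with a blue circle for animal 1, a red square for animal 2, a black bar for their mean and grey bands for the range of the arrays' lower quartiles and medians. Both ALPL probesets read higher on the DZ arrays than on the other 4, though the dimmer one stays below the medians in DZ of animal 2 (4.14). ENPP1 stays between 10.03 and 10.55, and ANKH falls from SZ to DZ in each animal.

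Among the 7 probesets 1 was called between SZ and DZ and 1 between MZ and DZ, in each case the brighter one of ALPL and higher in DZ. Of all 24016 probesets, 2.75% were called for SZ against DZ, 1.72% being higher in DZ. For MZ against DZ the shares were 0.704% and 0.612%. For SZ against MZ 0 of the 7 were called, against 0.0416% of all, with 1 of the 7 at an unadjusted p under 0.05 and 0 called in the dCHIP table. The F test of limma over the 3 zones called 1 of 7, again ALPL (adjusted p = 0.0125), against 1.84% of all probesets. The arrays of both zones did not overlap for 6 of 7 probesets in SZ against DZ, 3 of 7 in MZ against DZ and 2 of 7 in SZ against MZ, where the shares over all probesets were 45.5%, 38.0% and 35.2%. The median difference over the 5 genes (brightest probesets) was −0.01 for SZ minus DZ and −0.09 for MZ minus DZ, against 0.06 for all probesets in each, with members on both sides of 0. For SZ minus MZ it was 0.41, against 0.00 for all probesets: the brightest probesets of all 5 genes were positive, from 0.03 (ENPP1) to 1.54 (SLC20A1), none was called, and ALPL, ENPP1 and SLC20A2 turned sign in the dCHIP table.

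Some marker genes of cells outside cartilage were also higher in the deep zone, and others on the same lists did not pass. Of the 4 measured osteoblast markers 3 were lower in SZ than in DZ, and their summed level was 13.83 and 14.33 (log2) in DZ against 6.88 to 9.78 in the other zones. RUNX2, SP7, DMP1, PHEX and MEPE had no named probeset, so the list rests on the bone collagen chains COL1A1 and COL1A2, on BGLAP and on IBSP. Osteoclast markers (2 of 5 lower in SZ) summed to 11.84 and 11.27 in DZ and to 8.26 to 8.54 elsewhere, endothelial markers (3 of 9) to 8.28 and 9.95 against 6.37 to 6.84, and leukocyte markers (5 of 8) to 9.46 and 9.36 against 6.62 to 6.99. Adipocyte markers (1 of 6) summed to 8.61 and 10.04 in DZ and to 6.31 to 7.51 elsewhere, and synovial markers (2 of 6) to 11.12 and 11.10 against 8.96 to 9.89. CD14, a macrophage gene on the leukocyte list, went the other way: its brightest probeset was not called (SZ minus DZ 1.06, limma adjusted p = 0.0853), and a second one was called higher in SZ (2.12, adjusted p = 0.0129). On the adipocyte list the called gene was CFD (−1.47). FABP4, the brightest of that list in DZ (7.81 and 9.92), was not called (−2.28, adjusted p = 0.141), nor was LPL (−1.39), and PLIN1 stood at −0.04. ADIPOQ (0.93) and LEP (0.77) read higher in SZ without passing, around or below the lower quartile. VCAM1 of the synovial list also read higher in SZ without passing (1.20, adjusted p = 0.287). Of the red cell markers 0 of 5 passed, and their sum was 5.43 on both DZ arrays and 5.43 to 5.88 elsewhere. ALPL is also made by osteoblasts and some endothelium, and the part of these cells in its DZ level was not tested. Several of these marker calls between SZ and DZ depended on the setting, and others did not. The brightest probesets of the osteoclast gene ACP5, the endothelial KDR and the leukocyte genes CD74 and BOLA-DRA were called in 11 of 11 alternative settings. The leukocyte gene PTPRC was called at −2.66 and was not in the dCHIP table (−0.74, adjusted p = 0.134). Its dimmer probesets gave −0.95, −0.51 and 0.04, none called (limma adjusted p of 0.183 to 0.953). Those of PECAM1 gave −0.79 and 0.40, also without a call. Dimmer probesets of ACP5 gave −4.46 (called), −2.43 and −0.17 (not called). For KDR they gave −3.65 and −3.51 (called) and −2.67 (not called), and for ITGB3 −2.32 (called) and −0.37 (not called). TEK, an endothelial receptor, lost its call with no replicate block (0.188) and without DZ replicate 1 (0.0674), DZ replicate 2 (0.131), SZ replicate 1 (0.141) or SZ replicate 2 (0.0588). Of 11 alternative settings, 8 kept the call of the endothelial PECAM1, which was lost without DZ replicate 2, SZ replicate 1 or SZ replicate 2 (0.0543 to 0.0795). For the osteoclast integrin ITGB3 it was also 8, with losses without DZ replicate 1, DZ replicate 2 or SZ replicate 1 (0.0661 to 0.0853).

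**Figure D2:**
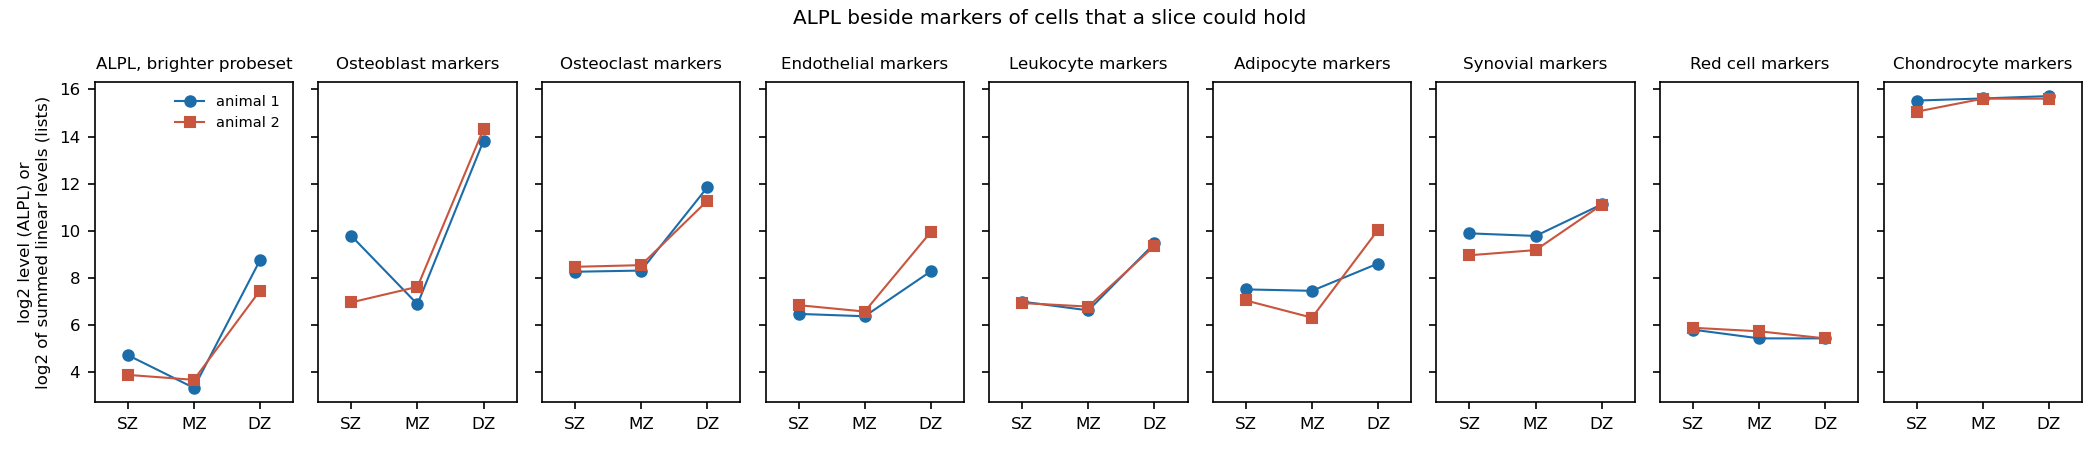
For each zone, the log2 level of the brighter ALPL probeset and the log2 of the summed linear levels of 8 marker lists, with a blue circle for animal 1 and a red square for animal 2. The osteoblast, osteoclast, endothelial, leukocyte, adipocyte and synovial sums are higher on both DZ arrays than on the other 4. The red cell sum stays between 5.43 and 5.88. The chondrocyte sum, set mostly by its brightest genes, stays between 15.06 and 15.72, although 2 of its 8 genes were called lower in SZ than in DZ on their brightest probesets.

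ENPP1, the pyrophosphate-making enzyme, was high at every depth and showed no difference between zones. It read 10.03 in animal 1 and 10.55 in animal 2 in SZ. MZ gave 10.39 and 10.13 and DZ 10.53 and 10.07, in the same order. The 6 values span 10.03 to 10.55, between the 98.1st and the 98.9th percentile of their arrays, and the zones overlap in every pair. The zone means were 10.29 ± 0.37, 10.26 ± 0.19 and 10.30 ± 0.33 for SZ, MZ and DZ (SD, n = 2), with no order beyond the spread. Between SZ and DZ the difference was −0.01 (SE 0.30). Its unadjusted 95% interval ran from −0.75 to 0.73, so differences within it are not excluded. The intervals were −0.79 to 0.70 for MZ minus DZ and −0.71 to 0.77 for SZ minus MZ, with adjusted p of 0.982 and 0.992. The animals moved in opposite directions from SZ to DZ, by −0.50 and 0.48 as SZ minus DZ.

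ANKH, the exporter, read highest at the surface and lowest in the deep zone in each animal, on both of its probesets, without passing the test. The brighter probeset read 10.08 in animal 1 and 10.72 in animal 2 in SZ, 9.42 and 10.56 in MZ, and 8.37 and 9.66 in DZ. Both SZ arrays lay above both DZ arrays, while MZ overlapped with each of them. SZ minus DZ was 1.39 (SE 0.26, 95% interval 0.76 to 2.02), a 2.62-fold level in SZ, with a limma adjusted p of 0.0555. The call depends on the processing. The adjusted p was 0.0309 with dim probesets left out, 0.0460 after quantile normalisation and 0.0325 with an intensity trend in the variance, but 0.340 with no replicate block for the animal and 0.0559 in the dCHIP table. MZ minus DZ was 0.98 (SE 0.26, adjusted p = 0.272) and SZ minus MZ 0.41 (SE 0.26, adjusted p = 0.747).

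The dimmer ANKH probeset read 8.90 and 9.28 in SZ, 7.93 and 9.13 in MZ, and 7.65 and 8.39 in DZ (animal 1 and animal 2). Its SZ arrays also lay above its DZ arrays. The difference SZ minus DZ was 1.07 (SE 0.28, adjusted p = 0.120), and it was positive in both animals, at 1.24 and 0.89. Animal 2 read higher than animal 1 on both probesets in all 3 zones, by 0.38 to 1.29, so the spread between animals was of the size of the difference between zones. The probesets correlated with r = 0.962 over the 6 arrays, as a description.

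The transporter SLC20A1 was highest in SZ in each animal, and its order below SZ differed between the animals. It read 9.84 in animal 1 and 11.13 in animal 2 in SZ. MZ gave 8.18 and 9.70 and DZ 9.39 and 8.68. Both SZ arrays lay above all other arrays, while MZ and DZ overlapped. SZ minus MZ was 1.54 (SE 0.54, interval 0.23 to 2.86, adjusted p = 0.478), with 1.66 and 1.43 in the 2 animals. Fitted on the SZ and MZ arrays alone, which share a description code but differ in the Bacillus controls, the adjusted p was 0.141. SZ minus DZ was 1.45 (SE 0.54, interval 0.13 to 2.77, adjusted p = 0.245), with 0.45 and 2.45. Without DZ replicate 1, SZ minus DZ was 2.51 and passed (adjusted p = 0.0382), and without DZ replicate 2 it was 0.39 (adjusted p = 0.686), so the size rests on which DZ array is used. In each of these fits DZ is 1 array, which is assumed to vary like the arrays of the other zones. MZ minus DZ was −0.09 (SE 0.54, interval −1.41 to 1.23), with −1.21 in animal 1 and 1.02 in animal 2.

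SLC20A2, the second transporter of the family, gave lower values and no call. It read 5.36 and 5.01 in SZ, 4.37 and 5.72 in MZ, and 5.96 and 5.80 in DZ (animal 1 and animal 2), which is between the 49.1st and the 70.3rd percentile of the arrays. Both DZ arrays lay above the other 4, but MZ of animal 2 lay close below them. The zones differed by −0.69 for SZ minus DZ (SE 0.43, interval −1.75 to 0.36, adjusted p = 0.467) and by −0.83 for MZ minus DZ (SE 0.43, interval −1.89 to 0.22, adjusted p = 0.613). SZ minus MZ was 0.14 (SE 0.43), with 0.98 in animal 1 and −0.70 in animal 2.

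**Figure D3:**
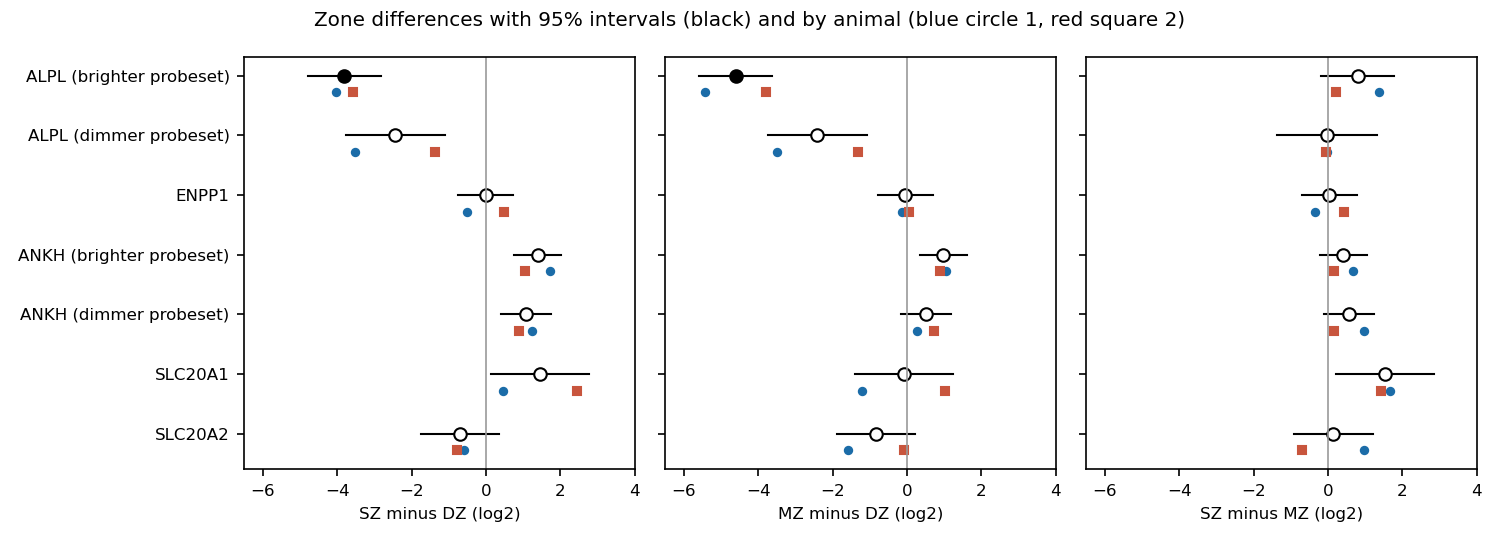
Differences between zones in log2 for the 7 probesets, with the 95% interval of the limma fit as a black line, a filled black circle for an adjusted p under 0.05 and an open one otherwise, and the difference in animal 1 (blue circle) and animal 2 (red square) below. The brighter ALPL probeset alone is filled, at −3.81 and −4.60, and both ANKH probesets lie to the right of 0 for SZ minus DZ in both animals.

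Within an array, the ratio of one gene to another removes what all probesets share. The log2 ratio of ALPL to ANKH (brightest probesets), as SZ minus DZ, was −5.75 in animal 1 and −4.64 in animal 2 (mean −5.20). For ALPL to ENPP1 the corresponding values were −3.53 and −4.06. The ratio of ENPP1 to ANKH differed by −2.22 and −0.58. These ratios show unequal change between zones, and they are descriptions over the same arrays.

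The genes whose brightest probeset followed a member most closely over the 6 arrays were named for the 3 members whose zone means spanned at least 1. For ALPL, out of 393 genes with enough spread, they were PTX3 (a secreted pentraxin, r = 0.996), the collagenase MMP13 (0.990), the actin bundler PLS1 (0.986) and AIF1, a macrophage gene of the leukocyte list (0.985). For ANKH, out of 3297 genes, they were COX20 (a cytochrome c oxidase assembly factor, r = 0.995), SEPTIN8 (0.990), HPS3 (0.987) and TMEM67 (0.986). For SLC20A1, out of 2336, they were the AP-1 subunit FOSL1 (r = 0.977), TMEM254 (0.954), the calcium-binding S100A4 (0.939) and the transcription factor ETS2 (0.935). S100A4 read 10.31 and 11.33 in SZ, 6.15 and 8.08 in MZ and 8.68 and 7.37 in DZ. With 6 points from 2 animals, many genes reach such values, and the correlations are descriptions.

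Of the other genes that release phosphate, PPA1 was also higher in the deep zone. PPA1 is the cytosolic inorganic pyrophosphatase, which splits pyrophosphate inside the cell. It read 11.64 in animal 1 and 9.43 in animal 2 in DZ, against 7.47 and 6.80 in SZ and 7.71 and 6.91 in MZ. Both DZ arrays lay above the other 4, and animal 1 read higher in DZ, as ALPL did. PPA1 was 10.5-fold higher in DZ than in SZ (SZ minus DZ −3.40, SE 0.41, limma adjusted p = 0.0158) and 9.34-fold higher than in MZ (−3.22, SE 0.41, adjusted p = 0.0389). The call was lost with no replicate block (adjusted p = 0.106 and 0.261). It was also lost without SZ replicate 1 for SZ against DZ (0.0754). For MZ against DZ it was lost after quantile normalisation (0.0521), without DZ replicate 1 (0.0642), without MZ replicate 1 (0.215) and without MZ replicate 2 (0.160).

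Altogether 2 of 7 measured genes of phosphate release (ALPL and PPA1) were lower in SZ and in MZ than in DZ, and 5 did not pass. The list's median was −0.19 for SZ minus DZ. PPA2, the mitochondrial pyrophosphatase, read 5.10 to 5.98 on the 6 arrays (SZ minus DZ 0.35, adjusted p = 0.611). NT5E, the ectoenzyme that releases phosphate and adenosine from AMP, read 7.78 to 9.35 with overlapping zones (0.37, adjusted p = 0.580). ENTPD5 differed by −0.66 (adjusted p = 0.261), while ENTPD1 and ENTPD3 read 1.84 to 3.42, around and below the lower quartile. PHOSPHO1 and ENTPD2 had no named probeset.

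Among genes of pyrophosphate and ATP supply, 1 of 5 measured was called. GJA1, a gap junction protein whose hemichannels can release ATP, read 10.10 and 10.39 in DZ, 9.01 and 8.81 in SZ, and 9.03 and 9.09 in MZ. Both DZ arrays lay above the other 4. The difference SZ minus DZ was −1.34 (SE 0.24, limma adjusted p = 0.0493), a call found in 4 of 11 alternative settings. It was lost with no replicate block (0.0597) and with any single array left out, DZ replicate 2 giving the highest adjusted p, 0.205. The second GJA1 probeset read 1.48 to 1.92 on all arrays. ENPP3, a relative of ENPP1, read 1.56 to 2.07 on all arrays, below the lower quartile. The channel PANX1 did not pass (−0.61, adjusted p = 0.471), and ABCC6 and PANX3 had no named probeset.

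Of 6 measured phosphate transporters 0 were called in any comparison, against the 2.75% of probesets called for SZ against DZ. An unadjusted p under 0.05 was found for SLC20A1 between SZ and MZ, and for SLC20A1 and XPR1 between SZ and DZ. XPR1, the phosphate exporter, read 5.29 and 4.99 in SZ, 3.85 and 4.74 in MZ, and 3.40 and 4.58 in DZ. The SZ arrays lay above the others in both animals (SZ minus DZ 1.15, SE 0.38, adjusted p = 0.200), and its dimmer probeset gave 0.36. The mitochondrial carrier SLC25A3 read 8.55 to 9.38 (−0.30, adjusted p = 0.585). SLC34A1 and SLC34A2, transporters of kidney and of lung and gut, read 1.93 to 3.21, around and below the lower quartile, and SLC34A3 had no named probeset.

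The matrix vesicle list, vesicles that bud from mineralising cells and carry ALPL, had 1 of 7 genes called. SMPD3, neutral sphingomyelinase 2, read 7.30 and 6.24 in SZ, 10.02 and 9.08 in MZ, and 10.53 and 11.06 in DZ. It was 16.3-fold higher in DZ than in SZ (SZ minus DZ −4.03, SE 0.42, limma adjusted p = 0.0107, called in 11 of 11 alternative settings). Unlike ALPL it was already above SZ in MZ in both animals (SZ minus MZ −2.78, SE 0.42, adjusted p = 0.0994), which did not pass, and that difference from ALPL was not tested. Of the annexins, ANXA1 read 9.38 and 8.52 in SZ against 7.76 and 8.26 in DZ, and it did not pass (SZ minus DZ 0.94, unadjusted p = 0.0395, limma adjusted p = 0.256). ANXA2, ANXA5 and ANXA6 differed by 0.31, 0.01 and 0.14 for SZ minus DZ, and none of them passed (adjusted p of 0.768 to 0.987).

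Mineral-binding and matrix genes also included some that were higher in DZ. Among them IBSP, COL1A1 and COL1A2 are the same genes that were called for SZ minus DZ on the osteoblast marker list. Of 8 measured mineral-binding genes 2 were lower in SZ than in DZ, bone sialoprotein IBSP at −6.38 (adjusted p = 0.0363) and DSPP at −7.09 (adjusted p = 0.00773), and 6 did not pass. DSPP read 2.49 and 2.36 in SZ, below the arrays' lower quartile, so the size of its difference is uncertain. The IBSP call was lost with no replicate block (0.0512), without DZ replicate 1 (0.181), without DZ replicate 2 (0.106) and without SZ replicate 2 (0.0861). The 4 genes of the mineralising matrix (COL1A1, COL1A2, COL10A1 and MMP13) were lower in SZ and in MZ than in DZ, and 11 of 11 alternative settings kept the calls of MMP13. Without DZ replicate 2 the SZ minus DZ calls of COL1A1 (0.0672) and COL1A2 (0.0527) were lost, and with no replicate block that of COL1A1 (0.0621). For MZ minus DZ, COL1A1 lost its call with no replicate block (0.0550) and without DZ replicate 2 (0.0565), MZ replicate 1 (0.113) or MZ replicate 2 (0.105), and COL1A2 without MZ replicate 2 (0.0648). COL10A1, the collagen of hypertrophic cartilage, was called at −4.86 for SZ minus DZ (adjusted p = 0.0410) and lost that call with no replicate block (0.212), without DZ replicate 1 (0.198), without DZ replicate 2 (0.123) and without SZ replicate 2 (0.0906). Its MZ minus DZ call was lost with no replicate block (0.181), without DZ replicate 1 (0.110) and without DZ replicate 2 (0.0899). MGP, matrix Gla protein, which restrains mineral, read 12.40 and 12.43 in SZ, 12.11 and 11.93 in MZ, and 12.29 and 9.76 in DZ. Animal 2 alone was low in DZ, and MGP did not pass (SZ minus DZ 1.39, SE 0.61, adjusted p = 0.313). In SZ of animal 1 the 4 matrix genes summed to 10.02 (log2), against 6.79 in SZ of animal 2 and 5.66 to 6.45 in MZ. The same array gave the highest ALPL value outside DZ.

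Of 5 measured regulators 2 were lower in SZ than in DZ, MEF2C at −3.88 (adjusted p = 0.00395) and DLX5 at −1.73 (adjusted p = 0.0321, called in 5 of 11 alternative settings). DLX5, a homeobox factor of bone and hypertrophic cartilage, read 8.66 and 8.52 in DZ, 6.63 and 7.08 in SZ, and 7.12 and 7.69 in MZ, and its dimmer probeset gave −2.36 (adjusted p = 0.0313). The DLX5 call was lost in the dCHIP table (0.0599), with no replicate block (0.0592) and without DZ replicate 1 (0.168), DZ replicate 2 (0.0659), SZ replicate 1 (0.140) or SZ replicate 2 (0.0698). RUNX2 and SP7 had no named probeset. Of the genes that set blood phosphate 3 were measured, and PTH1R, the receptor of parathyroid hormone, was called at −3.76 for SZ minus DZ (adjusted p = 0.00546), in 11 of 11 alternative settings. FGFR1 (0.51, adjusted p = 0.618) and CASR (0.63, adjusted p = 0.378) had the opposite sign and did not pass.

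**Figure D4:**
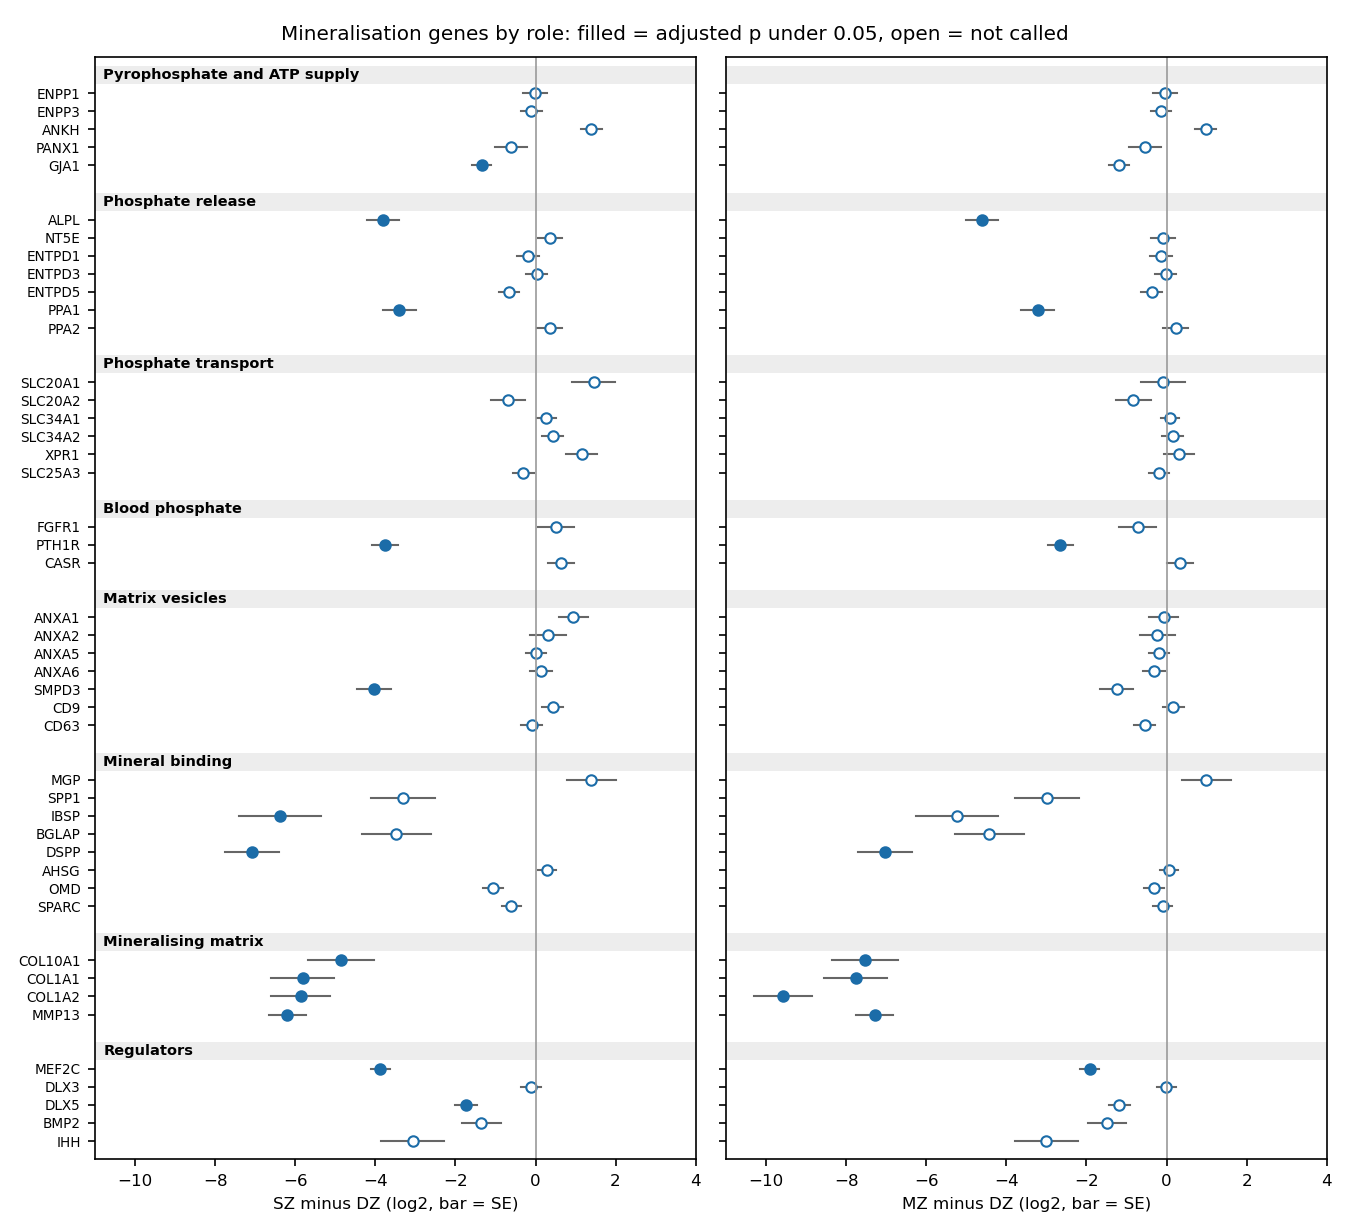
Log2 differences, SZ minus DZ on the left and MZ minus DZ on the right, for each measured gene of 8 lists (brightest probeset), with the model's SE as a bar and a filled circle for an adjusted p under 0.05. ALPL (−3.81 and −4.60) and PPA1 (−3.40 and −3.22) stand to the left of the other genes of phosphate release, and ANKH (1.39 and 0.98) stands to the right of 0.

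The second deposited table, made with dCHIP, gave the same picture for most members. The brighter ALPL probeset read 9.82 and 8.23 in DZ and 3.47 to 4.25 elsewhere, with differences of −5.17 for SZ minus DZ (SE 0.36, limma adjusted p = 0.00118) and −5.09 for MZ minus DZ (SE 0.36, adjusted p = 0.00266). The brighter ANKH probeset differed by 1.20 and SLC20A1 by 1.49 for SZ minus DZ, each without passing. The dimmer ANKH probeset differed by 0.76 (adjusted p = 0.173). In animal 1 it read 8.13 in MZ and 8.25 in DZ, so its lowest zone there was MZ, unlike in the RMA table. SLC20A2 differed by −1.22 (adjusted p = 0.125), further from 0 than in the RMA table. Over the 6 arrays the tables correlated with r of 0.945 to 0.998 for 6 of the probesets and with 0.791 for ENPP1, whose values vary little.

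**Figure D5:**
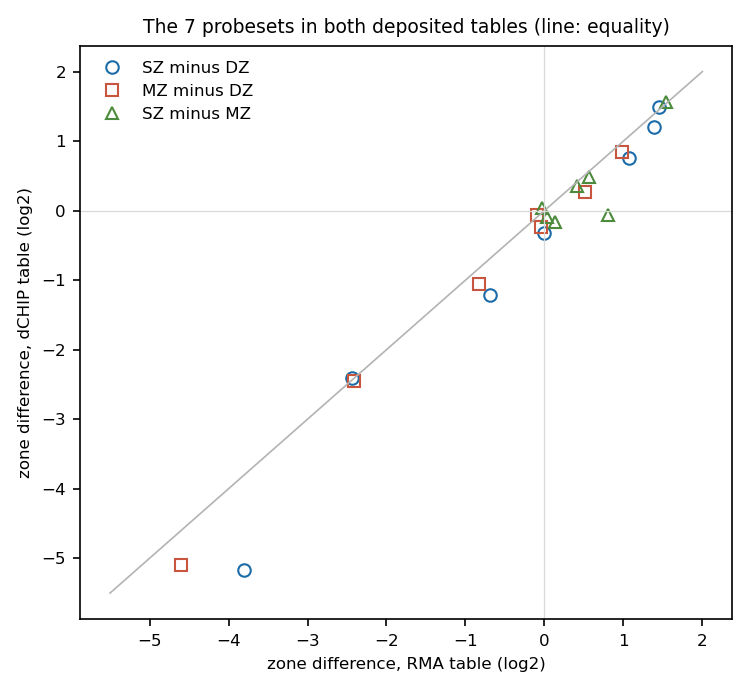
Zone differences of the 7 probesets in log2 from the RMA table (horizontal) and the dCHIP table (vertical), with blue circles for SZ minus DZ, red squares for MZ minus DZ, green triangles for SZ minus MZ and a grey line of equality. Most points lie near the line, and the brighter ALPL probeset lies below it for SZ minus DZ (−3.81 and −5.17) and for SZ minus MZ (0.80 and −0.07).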

How the data were processed

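RNA of 3 cartilage zones from 2 cattle was measured on 6 arrays. The deposited value table holds log2 expression per probeset, normalised by the authors with RMA per the submitters' processing notes, with no version given. A second deposited matrix holds log2 values, per its file name from dCHIP, and supplied the gene symbols. Background method and chip definition are not given in the sources used here. That both are on a log2 scale follows from their range. Each table holds 24128 probesets. The 112 controls were left out, and 24016 were tested without a filter on dim probesets.

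One limma 3.58.1 model (R 4.3.3) with zone and an animal block was fitted to all 6 arrays (residual degrees of freedom 2, prior 4.15). P-values are two-sided and adjusted by Benjamini-Hochberg over 24016 probesets, and an adjusted p under 0.05 was called. Intervals are the fit's 95% intervals without adjustment. The labels give the same animal for a replicate number. As a check, animal differences in 2 zones correlated with r of 0.259 (SZ and MZ), 0.216 (SZ and DZ) and 0.346 (MZ and DZ) across probesets. The number of arrays limits the precision.

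Symbols were updated through RefSeq synonyms (986 probesets), and the brightest probeset stood for a gene. The members, 8 gene lists, 8 marker lists and the naming rule were chosen with earlier results of these data known. The rule took every member probeset, called list genes and fixed genes of the same steps, plus the 4 genes most correlated with a member. The fit was tested on simulated data. Alternatives were the dCHIP table, no replicate block, dim probesets left out, quantile normalisation, a variance trend, each array left out and only the SZ and MZ arrays.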

Additional observations from a re-analysis of the deposited data

How the results depend on the processing

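The brighter ALPL probeset was called in 11 of 11 settings between SZ and DZ (−5.17 to −3.29, highest adjusted p = 0.0469) and between MZ and DZ (−5.30 to −3.90, highest adjusted p = 0.0436), and with no replicate block for the animal its adjusted p was 0.0262 and 0.0333. Where an array is left out, its zone has 1 array, which is assumed to vary like the other zones. Of the single values of the 7 probesets under the alternatives, 288 kept their direction and side of the threshold, 17 turned sign, 9 newly passed and 1 was lost, the F test of ALPL without DZ replicate 1 (0.0524). The number of all probesets called for SZ minus DZ, MZ minus DZ, SZ minus MZ and any zone was 660, 169, 10 and 443. It was 1262, 259, 135 and 828 in the dCHIP table, 295, 62, 3 and 169 with no replicate block, and 1062, 300, 186 and 821 with dim probesets left out. With the variance trend MZ minus DZ gave 272 and SZ minus MZ 100, and with only the SZ and MZ arrays SZ minus MZ gave 31. With 1 array left out the counts ranged from 204 (without DZ replicate 2) to 646, from 12 (without MZ replicate 2) to 258, from 0 to 31 and from 154 (without DZ replicate 2) to 434. Member probesets called for SZ minus DZ were 1, but 3 with dim probesets left out, 2 after quantile normalisation, 2 with the variance trend and 1 to 2 with 1 array left out. For MZ minus DZ they were 1 to 2 with 1 array left out (2 without DZ replicate 2), and for any zone 2 with dim probesets left out and 0 (without DZ replicate 1) to 2 (without DZ replicate 2). None of the values that turned sign was called. For SZ minus MZ in the dCHIP table they were ALPL at −0.07 (dimmer probeset 0.04), ENPP1 at −0.09 and SLC20A2 at −0.16, and after quantile normalisation ENPP1 at −0.03. With 1 array left out, ENPP1 ranged from −0.45 to 0.43 (SZ minus DZ), from −0.34 to 0.25 (MZ minus DZ) and from −0.41 to 0.48 (SZ minus MZ). SLC20A1 ranged from −1.15 to 0.97 (MZ minus DZ), and for SZ minus MZ SLC20A2 ranged from −0.66 to 0.94 and the dimmer ALPL probeset from −0.57 to 0.52. The cause of these shifts was not tested. With 2 arrays a zone, the adjusted test could also miss differences larger than the unadjusted intervals of ENPP1. ANKH at 1.39 (SE 0.26, SZ minus DZ) was not called.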

Other observations

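Some relatives of these genes were chosen after their values were seen and are given as values. The probeset filed as LOC100336614, titled cartilage intermediate layer protein, nucleotide pyrophosphohydrolase-like, read 11.66 and 11.44 in SZ, 11.07 and 12.33 in MZ, and 8.83 and 10.95 in DZ (animal 1 and animal 2). Both DZ arrays lay below the other 4, and neither difference from DZ passed limma's test (SZ minus DZ 1.66, adjusted p = 0.184, and MZ minus DZ 1.81, adjusted p = 0.322). ENPP2, autotaxin, an ENPP1 relative that makes lysophosphatidic acid, read 7.55 and 7.35 in SZ, 5.62 and 6.31 in MZ, and 6.66 and 6.64 in DZ. Its SZ arrays were the highest and its MZ arrays the lowest in both animals, without passing (SZ minus MZ 1.49, adjusted p = 0.170). The phosphatase LHPP differed by −1.15 on its brightest probeset (SZ minus DZ, adjusted p = 0.0781), and by −1.42 and 0.01 on its others, so its probesets disagreed.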
